A study of Schmidtea mediterranea with 8 samples.

Results

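*smedwi-1* and *agat-1* mark the start and a late step of one route of cell renewal in the planarian *Schmidtea mediterranea*: the neoblast, which is the stem cell, and the postmitotic cell on its way to the epidermis. Their transcripts were taken as the contigs that the study's marker table pairs with these names, dd_Smed_v4_659_0_1 for *smedwi-1* and dd_Smed_v4_899_0_1 for *agat-1*. They are 2 of the 38634 contigs in the deposited tables, and the rule that names them uses no measured value. The genes themselves were chosen with earlier results of these data known. No other contig of the assembly shared the component number of either one.

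Polyadenylated RNA was sequenced from 4 groups of 2 libraries. Head fragments came from CIW4 animals, the asexual clonal strain, after 6 feedings of control dsRNA against *unc-22*, a *Caenorhabditis elegans* gene with no planarian counterpart. Cephalic ganglia (CNS) were dissected from S2F1L3F2 animals, a sexual strain, after 12 feedings of *unc-22*, *hh* or *ptc* dsRNA, and are called control, *hh(RNAi)* and *ptc(RNAi)* CNS. The animals of all groups ate at 4-day intervals, and 1.0 µg of RNA went into a head library and 0.2 µg into a CNS library. The dissected animals were large (>2 cm) and were first immersed briefly in acid, neither of which is described for the head fragments. Strain, feedings, RNA input and these features therefore changed together with the tissue in the comparison of CNS with heads and cannot be told apart from it. The ganglia were reached by peeling off dorsal epidermis and taking away the gut above them, so that tissue left from those layers is part of what a CNS library can hold.

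Neoblasts are the only dividing somatic cells of a planarian and lie in the mesenchyme around the organs. They express *smedwi-1* and *smedwi-2*, which encode Piwi proteins, a family that binds small RNAs. Epidermal progeny leave the cycle, switch on *prog-1* while still early, switch to *agat-1*, which encodes an amidinotransferase, when later, and move outwards to the epidermis. The Hedgehog ligand, encoded by *hh*, relieves the repression that its receptor Patched, encoded by *ptc*, places on the pathway. RNAi of *hh* is thus the loss and RNAi of *ptc* the gain of signalling in this design.

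The deposited tables hold group means, from which the whole reads of each library were recovered. The libraries of a group are called a and b, names that carry no replicate number and pair nothing across groups. Total reads on contigs ran from 11479783 to 18932854 per library. Each targeted transcript had fewer reads in both libraries of its RNAi group than in both control libraries. Normalized reads of *hh* were 223 and 256 in control CNS and 39.3 and 85.1 in *hh(RNAi)* CNS, and those of *ptc* were 303 and 310 in control CNS and 198 and 201 in *ptc(RNAi)* CNS. Neither difference was called (limma adjusted p = 0.9999 and 0.31). *ptc* was lower still in *hh(RNAi)* CNS, at 117 and 159 normalized reads, so its fall does not set the *ptc(RNAi)* group apart. The log2 fold changes of *ptc* against control CNS were -1.14 in *hh(RNAi)* and -0.58 in *ptc(RNAi)*, and limma called neither. The paper reports a significant reduction of *hh* after its RNAi, and a decrease of *ptc* after either RNAi. The neuronal markers *syn*, *chat* and *pc2* were all called higher in control CNS than in heads, by log2 fold changes of 1.41 to 2.81. Libraries of a pair differed by more than the sampling noise of their reads, with a chi-square per degree of freedom of 4.77 in heads and 23.4 to 46.3 in the CNS pairs. The methods describe libraries made in duplicate with different indices and name no separate animals for them, so the p-values below measure the spread between these libraries, which may be technical.

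*smedwi-1* was present in every library, and its level placed the groups in an order without overlap. On 1 scale shared by the 8 libraries (reads divided by a size factor), it had 5565 and 5406 normalized reads in heads, 4530 and 2929 in *ptc(RNAi)* CNS, 1443 and 1894 in control CNS, and 776 and 787 in *hh(RNAi)* CNS. The means ± SD were 5486 ± 113, 3729 ± 1132, 1669 ± 320 and 782 ± 7.81 (n = 2 each). No groups overlapped, but the *ptc(RNAi)* libraries lay further from each other than from the nearest head or control library, and heads and *ptc(RNAi)* CNS were not tested against each other. Between 694 and 7788 reads lay behind each value, so that counting alone gave an error of 1.13% to 3.80%. Reads were not marked by molecule, and these errors cover counting only.

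*agat-1* was high in heads and low in all ganglia. It had 4889 and 4772 normalized reads in heads, 803 and 1257 in control CNS, 367 and 996 in *hh(RNAi)* CNS, and 831 and 394 in *ptc(RNAi)* CNS. The means ± SD were 4830 ± 83.03, 1030 ± 321, 681 ± 445 and 612 ± 309 (n = 2 each). The 3 CNS groups overlapped one another, and the lowest head library was far above every CNS library. Reads ran from 387 to 6842 per library, a counting error of 1.21% to 5.08%, which is small beside the spread of 31.2% to 65.3% (SD over mean) within the CNS pairs.

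**Figure D1:**
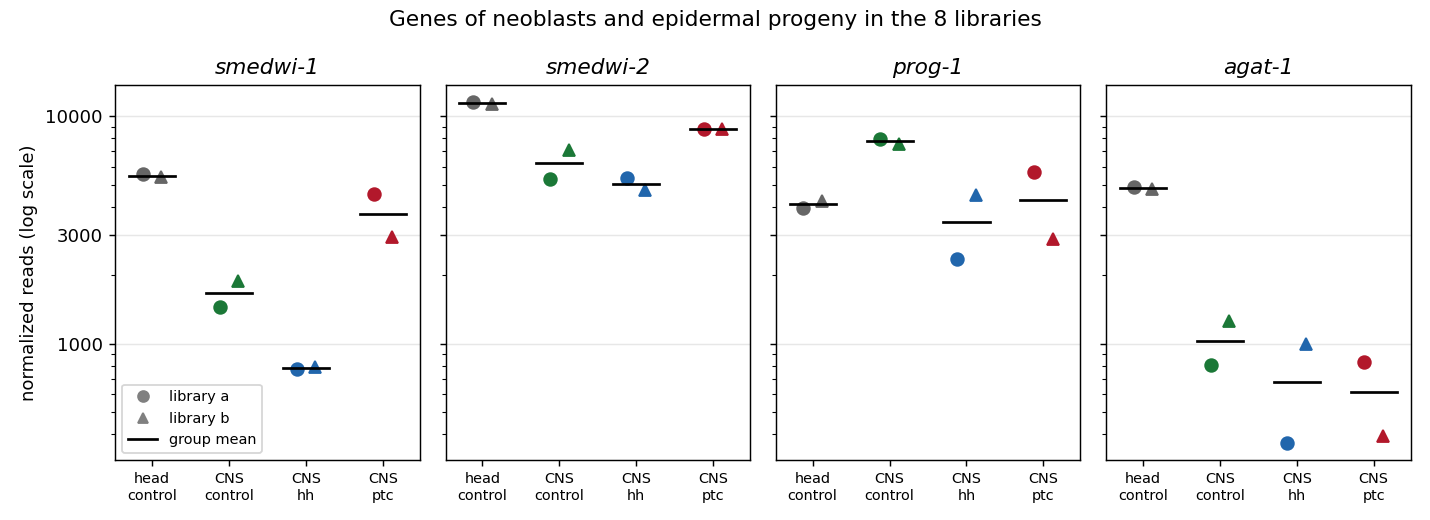
Normalized reads (log axis, scale shared by all libraries) of *smedwi-1*, *smedwi-2*, *prog-1* and *agat-1* in the 2 libraries of each group, circles for library a and triangles for library b, with bars at the group means. *smedwi-1* falls into 4 separate levels, with 776 and 787 in *hh(RNAi)* CNS and 4530 and 2929 in *ptc(RNAi)* CNS, while *agat-1* is high in heads alone; heights of different genes are not comparable, since contig lengths are not known.

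The comparison of control CNS with control heads sets neoblast and progeny transcript in dissected ganglia beside that in head fragments. Strain, feedings, RNA input and handling changed together with the tissue, so the values cannot show what dissection alone left behind. Both markers fell. *smedwi-1* was 3.02-fold lower in ganglia (log2 fold change -1.59, SE 0.14, 95% interval -1.96 to -1.23, limma adjusted p = 0.00035), and *agat-1* was 4.37-fold lower (-2.13, SE 0.22, -2.70 to -1.56, limma adjusted p = 0.00059). Both were called, that is past an adjusted p of 0.05 and a 2-fold change, where 22.2% of the 13494 tested contigs were called lower, so a fall of this kind was common between these tissues. On the shared scale, the control CNS libraries held 26.3% and 34.5% of the mean head level of *smedwi-1*, and 16.6% and 26.0% of that of *agat-1*. Fewer cells of a type and less RNA per cell cannot be told apart in bulk tissue.

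Over all tested contigs the median change was 0.32 on the log2 scale, and relative to it the falls were -1.91 for *smedwi-1* and -2.45 for *agat-1*. The balance of all calls moved with the scale, since limma called 4418 contigs higher and 3000 lower under the size factors of the authors' table and 3417 higher and 3711 lower relative to the median. Both members were called lower by every tool and scaling run.

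The other genes of the same route did not move as 1 block. *smedwi-2*, the second neoblast marker of the marker table, had 11548 and 11283 normalized reads in heads and 5284 and 7112 in control CNS. Its groups did not overlap, as in 42.1% of tested contigs that were lower, but its log2 fold change of -0.76 (SE 0.15, limma adjusted p = 0.0070) was under 2-fold, and it was called lower only by edgeR (-1.05), by DESeq2 (-1.07) and relative to the median. *prog-1*, dd_Smed_v4_332_0_1, had 3934 and 4247 normalized reads in heads and 7957 and 7581 in control CNS. This marker of early progeny was thus higher in ganglia (1.06, SE 0.08, limma adjusted p = 0.00019), where 32.7% of tested contigs were called higher, a direction that held under every scaling, whereas its call did not: it was 0.74 relative to the median, 0.98 when scaled by total reads, 0.75 with edgeR and 0.74 with DESeq2, all under 2-fold. Its name comes from a table of Hh-dependent contigs that the study chose on these samples, so *prog-1* is no independent evidence of its direction under RNAi. Of the 4 genes, 2 were called lower and 1 higher, with a median change of -1.18.

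The members can be set among the 22 markers of the study's table whose described pattern does not include the CNS, of which 16 were tested. In order of change, *agat-1* was the 6th lowest, between *ca* (-2.60), a marker of nephridia, and *mat* (-2.08), a marker of gut. *smedwi-1* was the 10th, between *beta-catenin* (-1.67) and *smedwi-2* (-0.76). The 13 tested markers that belong to neither neoblasts nor epidermal progeny ran from -4.48 to 2.50, with 8 called lower and 3 higher. The 2 members thus lay inside the range of the other tissues, and the gland marker *mag-1* (-4.48) and the muscle marker *collagen* (-4.44) were lower still. The summed normalized reads of 7 markers of nephridia, gland, muscle, gut and pharynx were 79168 and 80562 in heads and 7762 and 9471 in control CNS. All 7 were called lower in control CNS, so the 3 markers called higher were not among them. The pharynx marker *mhc6* made up most of each sum, with 44812 and 46108 in heads and 5500 and 6965 in control CNS. None of the 7 was at 0 in any library, and their part in the levels of the members was not tested.

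**Figure D2:**
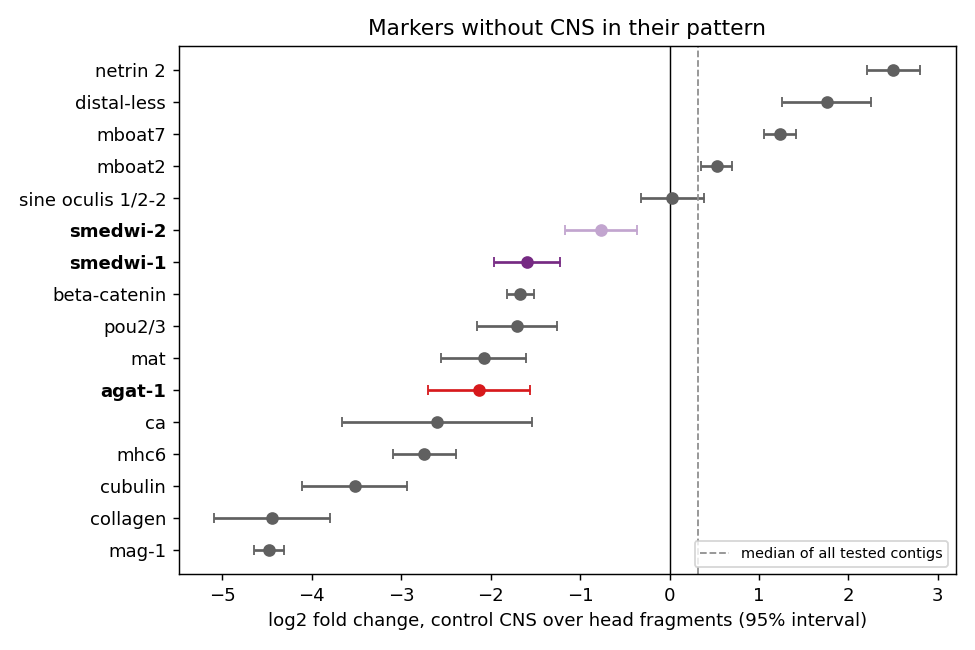
Log2 fold change (95% interval, limma) of control CNS over control heads for the 16 tested markers without CNS in their pattern, with the dashed line at the median of all tested contigs, 0.32. *agat-1* (-2.13) and *smedwi-1* (-1.59), in colour, lie between the most depleted markers, *mag-1* and *collagen*, and those higher in ganglia.

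*hh(RNAi)* asks what ganglia look like after loss of the ligand. *smedwi-1* was lower in both *hh(RNAi)* libraries (776 and 787) than in both control libraries (1443 and 1894). The difference was 2.08-fold (log2 fold change -1.06, SE 0.17, 95% interval -1.49 to -0.63), and 1.18% of tested contigs had a lower value. It was not called by limma (adjusted p = 0.88), in a comparison where 0.00823% of 12153 tested contigs were called lower, that is 1 contig. Libraries that did not overlap and were lower were seen in 16.4% of tested contigs, and together with a difference over 2-fold in 0.963%. The call depended on the tool: DESeq2 gave an adjusted p of 0.00058 with the same size of difference (-1.04), and edgeR gave 0.99.

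*agat-1* had 1 *hh(RNAi)* library below both controls (367) and 1 between them (996, against 803 and 1257). The log2 fold change of -0.71 (SE 0.47) had an interval from -1.89 to 0.47 and was not called (limma adjusted p = 0.9999). Its size rested on library a, since it was -0.02 without *hh(RNAi)* library a and -1.40 without library b. The interval therefore allows a fall of more than 2-fold as well as a small rise.

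*ptc(RNAi)* asks the same of ganglia with the repressor of the pathway reduced. *smedwi-1* was higher in both *ptc(RNAi)* libraries (4530 and 2929) than in both control libraries (1443 and 1894). The difference was 2.26-fold (log2 fold change 1.18, SE 0.22, 95% interval 0.65 to 1.71), and 99.3% of tested contigs had a lower value. limma did not call it (adjusted p = 0.16), while 0.264% of 12121 tested contigs were called higher. Higher libraries without overlap were seen in 12.9% of tested contigs, and together with a difference over 2-fold in 0.833%. It was called by DESeq2 (1.20, adjusted p = 9.42e-06) but not by edgeR (adjusted p = 0.16). With 1 library left out in turn, the limma log2 fold change ran from 0.88 to 1.47.

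*agat-1* was not higher in *ptc(RNAi)* CNS. It had 1 library inside the control range (831) and 1 below it (394), with a log2 fold change of -0.78 (SE 0.35, 95% interval -1.62 to 0.07, limma adjusted p = 0.80). In all, 1.19% of tested contigs had a lower value. Without *ptc(RNAi)* library a it was -1.29 and without library b -0.26, so that library b carried most of the difference. Among the 14 tested markers without CNS in their pattern, -0.78 was the lowest value, and the highest was 1.43 for *mag-1*.

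Setting the 2 RNAi groups directly against each other avoids the control libraries that both comparisons above share. *smedwi-1* was 4.65-fold lower in *hh(RNAi)* than in *ptc(RNAi)* CNS (log2 fold change -2.22, SE 0.23, 95% interval -2.82 to -1.62), and 0.507% of 12237 tested contigs had a lower value. The libraries stood far apart, 776 and 787 against 4530 and 2929. With an adjusted p of 0.076 limma did not call it, where 0.0899% of tested contigs were called lower, 15.4% were lower without overlap and 1.49% were so with a difference over 2-fold. The limma fit over all 8 libraries (adjusted p = 0.0068) and DESeq2 (adjusted p = 1.64e-16) did call it, and edgeR did not (adjusted p = 0.093). With 1 library left out in turn, the limma log2 fold change ran from -2.53 to -1.90. Those fits keep 1 library in an arm and have no spread for it. *agat-1* gave 0.08 (SE 0.58, 95% interval -1.40 to 1.56, limma adjusted p = 0.998), and its sign turned to -0.64 without *hh(RNAi)* library b and to -0.46 without *ptc(RNAi)* library b.

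**Figure D3:**
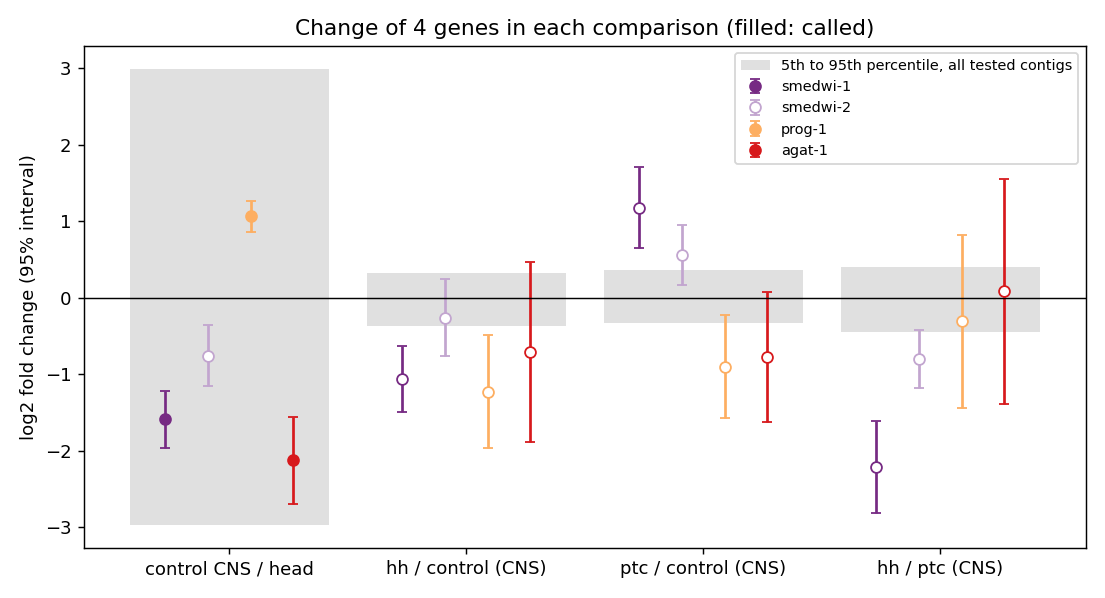
Log2 fold changes of 4 genes in the 4 comparisons with 95% intervals from limma, filled where called, over grey bands from the 5th to the 95th percentile of all tested contigs. *smedwi-1* lies outside the band in all 3 comparisons between CNS groups (-1.06, 1.18 and -2.22), and its intervals leave out 0; *agat-1* lies outside the band in *hh(RNAi)* (-0.71) and *ptc(RNAi)* (-0.78) and inside it between the RNAi groups (0.08), and its intervals include 0 in all 3.

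*smedwi-2* took the same order of groups as *smedwi-1* within the ganglia, over a narrower range. It had 5366 and 4739 normalized reads in *hh(RNAi)* CNS, 5284 and 7112 in control CNS, and 8806 and 8754 in *ptc(RNAi)* CNS. The *hh(RNAi)* libraries overlapped the controls (log2 fold change -0.26, limma adjusted p = 0.9999), and the *ptc(RNAi)* libraries were above them (0.55, SE 0.16, limma adjusted p = 0.51). Between the RNAi groups the difference was -0.80 (SE 0.15, limma adjusted p = 0.26). The ratio of *smedwi-1* to *smedwi-2* reads within a library, which no scaling can alter, went the same way. Its log2 value was -2.79 and -2.59 in *hh(RNAi)*, -1.87 and -1.91 in control, -0.96 and -1.58 in *ptc(RNAi)* CNS, and -1.05 and -1.06 in heads. Both *hh(RNAi)* libraries were below and both *ptc(RNAi)* libraries above the control CNS libraries, so *smedwi-1* differed between these libraries by more than *smedwi-2* did.

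*prog-1* was lower in both RNAi groups than in control CNS, as far as its libraries go. It had 7957 and 7581 normalized reads in control CNS, 2359 and 4520 in *hh(RNAi)* CNS, and 5684 and 2886 in *ptc(RNAi)* CNS. The log2 fold changes were -1.23 (SE 0.30, limma adjusted p = 0.9999) and -0.90 (SE 0.28, limma adjusted p = 0.56). Neither was called by limma. The libraries overlapped the controls neither time, which in the lower direction held for 16.4% of tested contigs in *hh(RNAi)* and 23.9% in *ptc(RNAi)*, and the RNAi groups overlapped each other (-0.31, SE 0.44, limma adjusted p = 0.998).

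Counted over the 4 genes, limma called 0 in *hh(RNAi)*, with 2 at an unadjusted p under 0.05 (2.27% of all tested contigs), 0 called by edgeR and 2 by DESeq2, namely *smedwi-1* and *prog-1*. Over all tested contigs edgeR called 0.0165% lower there and DESeq2 0.304%. In *ptc(RNAi)* it called 0, with 3 at an unadjusted p under 0.05 (6.39% of all tested contigs), 0 called by edgeR and 1 by DESeq2, *smedwi-1*, where edgeR called 0.231% of all tested contigs higher and DESeq2 0.726%. Between the RNAi groups it called 0, with 2 at an unadjusted p under 0.05 (5.98% of all tested contigs), 0 called by edgeR and 1 by DESeq2, again *smedwi-1*, where edgeR called 0.0654% of all tested contigs lower and DESeq2 1.1%. All 4 genes had log2 fold changes below 0 in *hh(RNAi)*, with a median of -0.89 beside -0.02 over all tested contigs. In *ptc(RNAi)* they were above 0 for the 2 neoblast genes and below 0 for the 2 progeny genes, with a median of -0.11 beside -0.01. Between the RNAi groups 3 of the 4 were lower in *hh(RNAi)*, with a median of -0.56 beside 0.01. Without *prog-1*, whose name comes from a list chosen on these samples, the medians of the other 3 genes were -0.71, 0.55 and -0.80.

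The balance of late progeny to neoblast transcript can be read from reads of the same library. The log2 ratio of *agat-1* to *smedwi-1* reads was -0.19 and -0.18 in heads, -0.85 and -0.59 in control CNS, -1.08 and 0.34 in *hh(RNAi)* CNS, and -2.45 and -2.90 in *ptc(RNAi)* CNS. Only differences of this ratio between libraries can be read, because the lengths of the contigs are not known. Both *ptc(RNAi)* libraries were lower than all other libraries, and the *ptc(RNAi)* mean differed from the control CNS mean by -1.95 on the log2 scale (SDs 0.32 and 0.18, n = 2 each). The *hh(RNAi)* libraries lay on either side of the controls and 1.42 apart. The counting intervals were narrow beside these differences, at -3.05 to -2.74 (Wilson, 95%) for the lowest library. The ratios are given by library and were not tested; an exact permutation test of 2 against 2 libraries could not go below a two-sided p of 0.33.

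The ratio of early progeny to neoblast transcript shares its *smedwi-1* reads with the ratio above. The log2 ratio of *prog-1* to *smedwi-1* reads was 2.46 and 2.00 in control CNS, 1.60 and 2.52 in *hh(RNAi)* CNS, and 0.33 and -0.02 in *ptc(RNAi)* CNS. It was -0.50 and -0.35 in heads. The *hh(RNAi)* libraries spanned the controls, and the *ptc(RNAi)* libraries were below all other CNS libraries and above the heads. Set against *smedwi-2* in place of *smedwi-1*, the log2 ratio of *agat-1* was -2.72 and -2.50 in control, -3.87 and -2.25 in *hh(RNAi)* and -3.41 and -4.48 in *ptc(RNAi)* CNS. That of *prog-1* was 0.59 and 0.09, -1.19 and -0.07, and -0.63 and -1.60 in the same order. With this denominator the *ptc(RNAi)* libraries were again below the controls for both genes, but they overlapped the *hh(RNAi)* libraries. The ratio of *agat-1* to *prog-1*, late to early progeny, was -3.31 and -2.59 in control, -2.69 and -2.18 in *hh(RNAi)* and -2.77 and -2.87 in *ptc(RNAi)* CNS. Both RNAi groups overlapped the controls, and both *hh(RNAi)* libraries were above both *ptc(RNAi)* libraries. It was 0.31 and 0.17 in heads, so that the step between tissues, 3.19 on the log2 scale from the control CNS mean to the head mean, was larger than any difference among the ganglia.

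**Figure D4:**
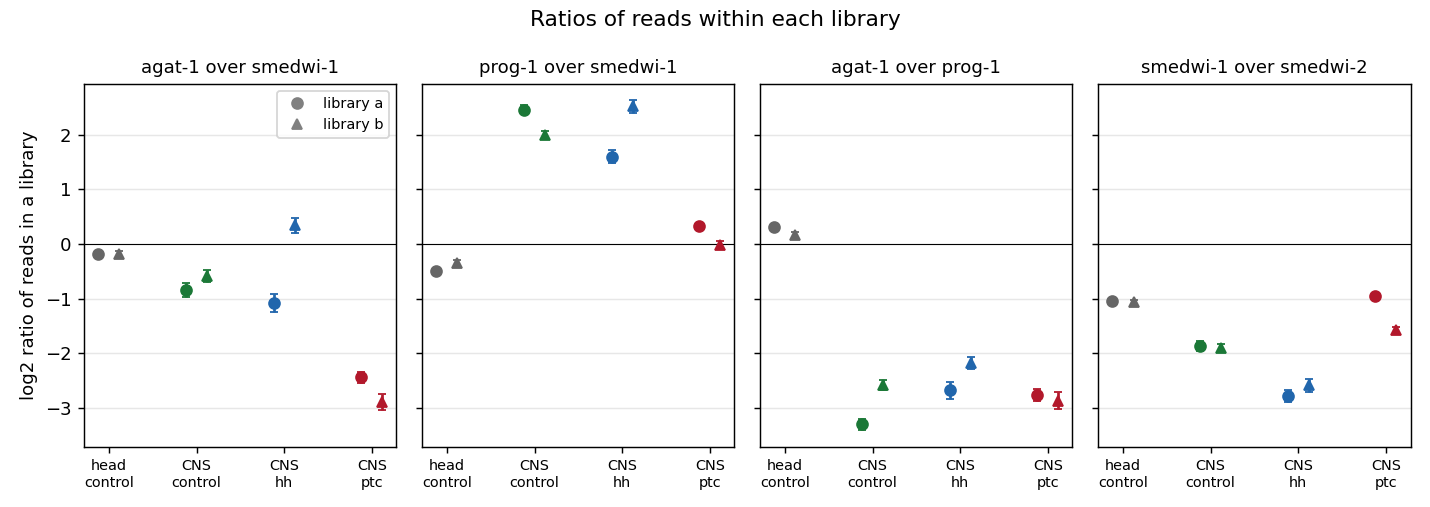
Log2 ratios of reads within each library for 4 pairs of genes, by group, with circles for library a, triangles for library b and 95% Wilson intervals for counting error. The *agat-1* to *smedwi-1* ratio is lowest in *ptc(RNAi)* CNS (-2.45 and -2.90), while the *agat-1* to *prog-1* ratio of either RNAi group overlaps that of control CNS.

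The libraries of an RNAi group differed more in the progeny markers than in the neoblast markers. From library a to library b, *agat-1* differed by 1.44 on the log2 scale in *hh(RNAi)* and by -1.08 in *ptc(RNAi)*, and 98.0% and 98.8% of contigs differed by less. *prog-1* differed in the same direction as *agat-1* in both pairs, by 0.94 and -0.98. *smedwi-1* differed by 0.02 in the *hh(RNAi)* pair, where the SD over contigs was 0.53, and by -0.63 in the *ptc(RNAi)* pair, where it was 0.42. In control CNS *agat-1* differed by 0.65 and *prog-1* by -0.07, so the progeny markers did not move together there, and the neoblast markers *smedwi-1* and *smedwi-2* differed by 0.39 and 0.43. In the head pair all 4 genes differed by between -0.04 and 0.11. Library a is the one with the larger size factor of its group in the authors' tables, and the letters are no replicate numbers.

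**Figure D5:**
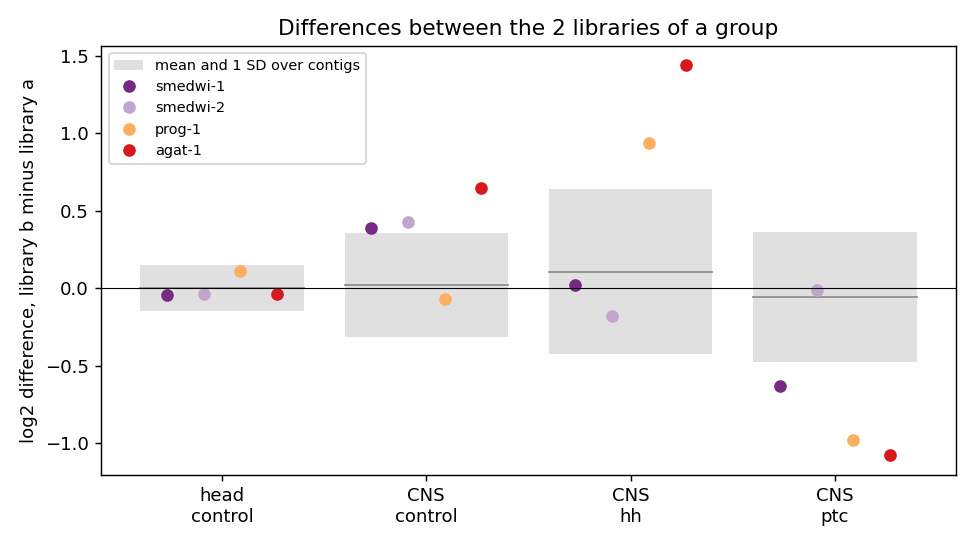
Log2 difference between library b and library a of each group for 4 genes (points), over a grey band of the mean and 1 SD over contigs with a group mean of at least 100 normalized reads. *agat-1* and *prog-1* lie outside the band in the *hh(RNAi)* pair (1.44 and 0.94) and, with *smedwi-1* (-0.63), in the *ptc(RNAi)* pair (-1.08 and -0.98); in control CNS *agat-1* (0.65), *smedwi-1* (0.39) and *smedwi-2* (0.43) are outside it, and in heads none of the 4.

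Markers of other tissues were followed beside these values. The summed normalized reads of the 7 markers of nephridia, gland, muscle, gut and pharynx were 6289 and 9345 in *hh(RNAi)* CNS and 9218 and 8748 in *ptc(RNAi)* CNS, against 7762 and 9471 in control CNS. These sums follow mainly *mhc6*, at 4656 and 6175, 6347 and 5882, and 5500 and 6965 in the same order, and say little of the other tissues. Of these 7 markers, 5 were tested in each RNAi comparison, with medians of -0.09 in *hh(RNAi)* and 0.02 in *ptc(RNAi)*, and 1 was called. That was *mag-1*, a marker of marginal adhesive gland cells, higher in *ptc(RNAi)* by 1.43 (SE 0.11, limma adjusted p = 0.011), at 1274 and 1158 normalized reads against 451 and 474. In *hh(RNAi)* CNS *mag-1* was 210 in library a and 955 in library b, the same side of the pair on which *agat-1* and *prog-1* were high. The other CNS pairs did not show this. In the *ptc(RNAi)* pair *mag-1* was nearly level (1274 and 1158), whereas *agat-1* (831 and 394) and *prog-1* (5684 and 2886) were not. In the control pair *mag-1* (451 and 474) and *prog-1* (7957 and 7581) were nearly level, and *agat-1* (803 and 1257) was not. The part of these tissues in the differences of the members was not tested. *gapdh*, with log2 fold changes of -0.15 in *hh(RNAi)* and 0.00 in *ptc(RNAi)*, did not pass the test.

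Each member had contigs whose profile over the 8 libraries was nearly its own. Likeness was measured by the root mean square difference of log2 normalized reads, each contig centred on its mean, among 12936 other contigs with a mean of at least 100. The nearest to *smedwi-1* were dd_Smed_v4_8785_0_1 (0.13) and dd_Smed_v4_4761_0_1 (0.14), neither of which has a name in the study's tables. The nearest with a name were *reticulocalbin-1* (0.38, the 45th of all), from the table of Hh-dependent contigs, *pou2/3* (0.64, the 185th), a marker of nephridia, and *smedwi-2* (0.65, the 211th). The second of these, dd_Smed_v4_4761_0_1, had group means of 904 in heads, 233 in control, 109 in *hh(RNAi)* and 528 in *ptc(RNAi)* CNS. It was picked for its likeness to *smedwi-1* over these same libraries, so the shared order of groups is no separate evidence.

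The nearest to *agat-1* were dd_Smed_v4_920_0_1 (0.09) and dd_Smed_v4_1971_0_3 (0.11), also without a name. The first of them had group means of 4738 in heads, 1013 in control, 598 in *hh(RNAi)* and 606 in *ptc(RNAi)* CNS. The nearest with a name were the pharynx marker *mhc6* (0.47, the 108th), the nephridial marker *ca* (0.52, the 192nd) and the gut marker *mat* (0.54, the 240th). Picked for likeness of profile, these 3 share with *agat-1* the high level in heads. The distance between *agat-1* and *smedwi-1* was 1.06, and that from *agat-1* to *prog-1* was 1.32. Over all 8 libraries, heads included, *agat-1* was thus further from *prog-1* than from *smedwi-1*. Within the ganglia alone, the log2 ratio of *agat-1* to *prog-1* reads had a narrower range (-3.31 to -2.18) than that to *smedwi-1* (-2.90 to 0.34).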

How the data were processed

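The authors trimmed 5 bases from the TruSeq reads, aligned them by Bowtie2 to contigs of the Dresden assembly, reported 1 best alignment a read and took counts with SAMtools. Their methods name DESeq2, with no version. The deposited signal columns hold the mean over both libraries of a group of reads divided by size factors, computed separately in each of 3 tables. The authors' fold changes and p-values were not used. Since the reads behind a mean are whole numbers, those of both libraries could be solved for, in 100% of means above 0. In the head table, 53 head means and 20 control CNS means had more than 1 solution, and the most even pair was taken. The control CNS reads from the *hh* and *ptc* tables were identical in 38634 of 38634 contigs, and 38626 were identical with those from the head table, which identified its columns.

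limma 3.58.1 (R 4.3.3; trend, empirical Bayes) was fitted to log2(normalized reads + 1) of 4 libraries per comparison, so that fold changes are on that scale, over contigs with a mean of at least 100, with Benjamini-Hochberg adjustment over all of them. The test was checked on simulated data with 4-fold changes and 1 fixed spread between libraries. That check does not show how the test performs at the spread of the CNS pairs or for changes near 2-fold. A call needed an adjusted p under 0.05 and over 2-fold. The *hh* against *ptc* comparison and all levels used size factors over all 8 libraries. Alternatives were edgeR 4.0.16, DESeq2 1.42.0, other scalings, minimums, pseudocounts and variance models, and leaving out each library. Python 3.11.15 and matplotlib 3.10.9 were used. Named genes were the members, *smedwi-2*, *prog-1*, markers next to the members in order of change, check genes, and for each member the 3 named and 2 unnamed contigs of nearest profile; *mag-1*, *collagen* and *mat* are further named as listed tissue markers. Members and lists were chosen with earlier results of these data known.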

Additional observations from a re-analysis of the deposited data

How the results depend on the processing

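Of 109 values of the members under the alternatives tried, 98 kept their direction and their side of the threshold. In CNS against heads all did, *smedwi-1* running from -1.91 to -1.40 and *agat-1* from -2.45 to -1.81 on the log2 scale. The others concerned *smedwi-1* and 1 direction of *agat-1*. DESeq2 called *smedwi-1* in *hh(RNAi)* (-1.04), in *ptc(RNAi)* (1.20) and between the RNAi groups (-2.25), and the fit over all 8 libraries called it between the RNAi groups (-2.22); the cause was not tested. With each library left out in turn, *smedwi-1* ran from -1.26 to -0.86 in *hh(RNAi)*, never called, from 0.88 to 1.47 in *ptc(RNAi)*, called only without control library b (1.37), and from -2.53 to -1.90 between the RNAi groups, always called. *agat-1* between the RNAi groups ran from -0.64 to 0.80 and reversed without *hh(RNAi)* library b (-0.64) and without *ptc(RNAi)* library b (-0.46). Where an arm kept 1 library, that library was assumed to vary like the rest, so calls with a library left out add no support. At a minimum of 1000 normalized reads *agat-1* was not tested between CNS groups. Over the 4 genes of the route, no minimum left the counts of calls as they were, and leaving out *prog-1*, chosen after seeing the data, left 2 calls in CNS against heads and 0 elsewhere. Over all tested contigs DESeq2 called 37 lower and 0 higher in *hh(RNAi)*, 38 and 88 in *ptc(RNAi)* and 134 and 23 between the RNAi groups, against 1 and 0, 9 and 32, and 11 and 0 by limma.

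No paired analysis was possible because the libraries recovered from group means carry no replicate number. The precision is limited by 2 libraries per group: the intervals of *agat-1* ran from -1.89 to 0.47 in *hh(RNAi)* and from -1.62 to 0.07 in *ptc(RNAi)* on the log2 scale.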
